A study of Mus musculus with 22 samples.

Results

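The 10 genes described here are 7 matrix metalloproteinases (Mmp2, Mmp3, Mmp9, Mmp11, Mmp13, Mmp14 and Mmp19) and 3 tissue inhibitors of metalloproteinases (Timp1, Timp2 and Timp3), given by name and found by their Ensembl identifiers among the 55414 genes of a read count table. The table covers fibroblasts sorted from mouse skin that had or had not been stretched from below. Expander mice (EXP) carried an expander hydrogel under the skin near the neck, and control mice (CTRL) had the same operation, incision and stitching included, without the hydrogel. Skin was taken on day 1, 2 or 4, which gave CTRL groups of 4, 3 and 4 libraries and EXP groups of 5, 3 and 3. Strain, genotype, age and sex are not given in the labels, and all comparisons are between operated mice, so none shows the effect of the operation itself. Live cells were sorted as negative for CD31, CD45, CD117 and EpCAM and positive for CD34 and PDGFRα.

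Matrix metalloproteinases are zinc-dependent enzymes that cut the proteins of the extracellular matrix, and many also release or inactivate signalling proteins. Most are made as inactive precursors whose prodomain has to be removed, by furin inside the cell or by plasmin and other metalloproteinases outside it. TIMPs bind the active enzymes and block them, and Timp2 also takes part in the activation of Mmp2 by Mmp14 at the cell surface. In skin, dermal fibroblasts are a main source of both families during repair and remodelling. Transcript counts report neither secretion nor enzyme activity.

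The libraries held 21461294 to 30210204 counts each, and 17554 genes, with all 10 members among them, had enough counts to be tested. Levels are given as CPM (counts scaled to a common TMM-adjusted library total), and differences as log2 fold changes of EXP over CTRL from edgeR's quasi-likelihood test, with Benjamini-Hochberg adjustment over all genes tested. A gene is said to have risen or fallen where its adjusted p was under 0.05. The sorted identity was visible in Pdgfra at 227 to 1022 CPM and Cd34 at 216 to 2346 CPM in every library, whereas the leukocyte marker Ptprc (CD45) reached at most 0.243 CPM. The 8 fibroblast markers summed to 138100 to 191300 CPM in CTRL and 74470 to 117500 CPM in EXP on day 1, to 236300 to 288600 and 49030 to 120600 CPM on day 2, and to 188400 to 248600 and 41070 to 185100 CPM on day 4. Col1a1 and Col1a2 made up most of these sums. The 8 markers did not move in 1 direction. Pdgfra rose on all days (log2 fold change 0.84, 1.71 and 0.79) and Pdpn on days 1 and 2 (1.78 and 1.44). Cd34 fell on days 1 and 2 (-1.74 and -2.07), Col1a1 on all days and Col1a2 on days 1 and 2. Dcn fell on days 2 and 4 and Lum on day 4, while Thy1 was called on no day. In bulk RNA, fewer cells making a transcript and less of that transcript per cell cannot be told apart.

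On day 1, 7 of the 10 members changed, 4 upwards (Mmp3, Mmp13, Mmp19 and Timp1) and 3 downwards (Mmp9, Mmp11 and Timp3). Over all genes tested on that day 28.6% changed, 13.9% higher and 14.7% lower in EXP. On day 2, 5 members rose (Mmp3, Mmp11, Mmp13, Mmp19 and Timp1) and 0 fell, against 13.4% of all genes changed, 7.72% higher and 5.71% lower. On day 4, 5 members rose (Mmp3, Mmp9, Mmp13, Mmp19 and Timp1) and 1 fell (Mmp14), against 22.5% of all genes changed, 12.8% higher and 9.66% lower. Mmp3, Mmp13, Mmp19 and Timp1, 4 of the 10 members, were higher on every day, as were 2.50% of all genes tested. The median log2 fold change of the 10 members was 0.02 on day 1, 1.53 on day 2 and 0.51 on day 4, beside 0.02, 0.02 and 0.03 over all genes.

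**Figure D1:**
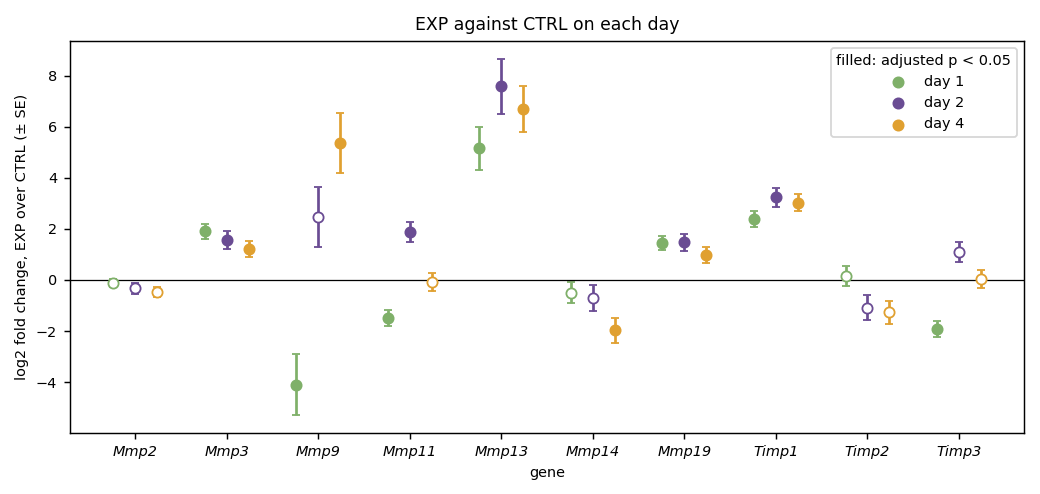
Log2 fold change of EXP over CTRL for each of the 10 genes (y axis, ± SE) on days 1, 2 and 4 (colours), with filled points for adjusted p under 0.05. Mmp3, Mmp13, Mmp19 and Timp1 are filled above zero on all 3 days, while Mmp9, Mmp11 and Timp3 are filled below zero on day 1 and lie above zero on day 2, where of the 3 only Mmp11 is filled, and the day 1 point of Mmp9 rests on 6 counts in the 5 EXP libraries.

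Mmp13, Mmp3, Mmp19 and Timp1 are described first. Mmp13 encodes collagenase 3, which cuts fibrillar collagen and is a principal interstitial collagenase of rodents. Mmp3 encodes stromelysin 1, which degrades proteoglycans, fibronectin and basement membrane proteins and activates other proenzymes. To show the DNA next to the starts of these genes, the 120 bases before the RefSeq start (build GRCm38.p6, plus strand, 5′ to 3′) are printed for the 3 of these 4 genes with an entry in the promoter table. They lie at chr9:7272394-7272513 for Mmp13, chr9:7445702-7445821 for Mmp3 and chrX:20870046-20870165 for Timp1. Capitals mark the AP-1 letters TGAGTCA or their reverse complement TGACTCA, and the ETS core AGGAAG or its reverse complement CTTCCT.

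Mmp13: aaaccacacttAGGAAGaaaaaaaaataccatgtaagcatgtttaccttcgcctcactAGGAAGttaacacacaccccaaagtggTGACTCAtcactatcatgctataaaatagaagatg
Mmp3: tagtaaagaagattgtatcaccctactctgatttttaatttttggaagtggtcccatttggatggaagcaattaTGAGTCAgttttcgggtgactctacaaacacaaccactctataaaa
Timp1: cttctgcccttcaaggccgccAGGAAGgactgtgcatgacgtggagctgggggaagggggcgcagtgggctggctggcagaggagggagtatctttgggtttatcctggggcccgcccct

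In the 250 bases before the start, searched on both strands, the AP-1 letters occurred in 1466 of 32851 promoters (4.46%) and in 2 of the 7 members with an entry, Mmp13 and Mmp3. Their first base lay 35 bases before the start in Mmp13 and 46 bases before it in Mmp3. The ETS letters occurred in 9686 promoters (29.5%) and in 5 of the 7 members (Mmp13, Mmp3, Timp1, Timp3 and Mmp14). Mmp13 had them at 109 and 62 bases and Timp1 at 99 bases before the start, as printed, whereas the match in Mmp3 at 183 bases and another in Timp1 at 175 bases lie upstream of the stretch shown. Such a match describes letters and not a bound site.

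Mmp13 (ENSMUSG00000050578) had the largest fold difference of the 10 genes on every day. In replicate order, the CTRL libraries of day 1 held 1.15, 0.466, 1.61 and 0.153 CPM and the EXP libraries 52.6, 13.2, 29.0, 34.4 and 23.9 CPM. Every EXP library lay above every CTRL library, and the log2 fold change was 5.16 (SE 0.84, adjusted p 2.18e-04), or 35.7-fold. On day 2 the CTRL libraries held 1.14, 0.261 and 1.03 CPM and the EXP libraries 193, 55.5 and 226 CPM, a difference of 7.58 (SE 1.09, adjusted p 3.25e-04). The CTRL libraries of day 4 held 1.26, 2.23, 1.17 and 2.38 CPM, and the EXP libraries 111, 15.6 and 415 CPM. The groups stayed apart (log2 fold change 6.68, SE 0.90, adjusted p 2.42e-04), but the EXP libraries were spread widely, at 181 ± 209 CPM (SD, n = 3). Without EXP replicate 3 the day 4 difference was 5.16 and still passed the test. Mmp13 is a low transcript in CTRL, with 4 to 55 counts per library over the 3 days.

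Mmp3 (ENSMUSG00000043613) was abundant in both arms. The CTRL libraries of day 1 held 1131, 2648, 1665 and 2106 CPM and the EXP libraries 8256, 5313, 8991, 5145 and 7483 CPM. All 5 EXP libraries exceeded the highest CTRL library, and the log2 fold change was 1.90 (SE 0.29, adjusted p 9.53e-05). On day 2 the CTRL libraries stood at 3963, 2366 and 2082 CPM and the EXP libraries at 8786, 7466 and 8746 CPM (1.57, SE 0.34, adjusted p 0.00519). The day 4 values were 1713, 2098, 1792 and 3224 CPM in CTRL and 3449, 4440 and 7269 CPM in EXP. The lowest EXP library of day 4 was just above the highest CTRL library. That difference of 1.20 (SE 0.31, adjusted p 0.0111) passed the test with all libraries, but not without EXP replicate 3 (0.86, adjusted p 0.0516) nor in a fit of the day 4 libraries alone (1.17, adjusted p 0.0709). Mmp3 has a close paralog, Mmp10, and reads of one may have been counted for the other. Mmp10, at group means of 28.4 to 173 CPM, was far below Mmp3, so such reads would weigh more on Mmp10 than on Mmp3.

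Mmp19 (ENSMUSG00000025355) encodes an enzyme that cuts basement membrane proteins and is found in many normal tissues. On day 1 it stood at 136, 140, 169 and 96.8 CPM in CTRL and at 358, 280, 294, 488 and 407 CPM in EXP. The day 2 values were 133, 92.8 and 151 CPM in CTRL and 426, 235 and 394 CPM in EXP. On both days the arms did not overlap, and the log2 fold change was 1.43 (SE 0.28, adjusted p 7.05e-04) on the first and 1.48 (SE 0.33, adjusted p 0.00596) on the second. On day 4 CTRL held 120, 92.3, 131 and 218 CPM and EXP 245, 181 and 402 CPM, so CTRL replicate 4 lay inside the EXP range. The day 4 difference of 0.98 (SE 0.30, adjusted p 0.0258) was lost when any of 5 libraries was left out: the values were 0.91, 0.82 and 0.94 without CTRL replicates 1, 2 and 3, and 1.06 and 0.61 without EXP replicates 1 and 3, with adjusted p of 0.0581, 0.0697, 0.0609, 0.0541 and 0.144. Exons of Mmp19 overlap those of Tmem198b (5.08 to 15.7 CPM) and Gm47093 (0 to 0.670 CPM) on the opposite strand, and whether the counting used strand is not given in the sources used here.

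Timp1 (ENSMUSG00000001131) encodes a secreted inhibitor of most soluble metalloproteinases that is a weak inhibitor of Mmp14. The CTRL libraries of day 1 held 95.6, 75.8, 146 and 105 CPM and the EXP libraries 396, 546, 738, 488 and 589 CPM. On day 2 the values were 53.4, 65.0 and 82.5 CPM in CTRL and 880, 468 and 548 CPM in EXP. The lowest EXP library of each of these days was above the highest CTRL library. Day 4 gave 77.1, 109, 58.9 and 127 CPM in CTRL and 1132, 748 and 391 CPM in EXP, again without overlap. Timp1 was thus 5.22-fold higher on day 1 (log2 2.38, SE 0.31, adjusted p 2.13e-05), 9.43-fold on day 2 (log2 3.24, SE 0.38, adjusted p 4.15e-05) and 8.14-fold on day 4 (log2 3.02, SE 0.34, adjusted p 8.78e-05). The day-dependence of the effect did not pass the test (adjusted p 0.360).

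**Figure D2:**
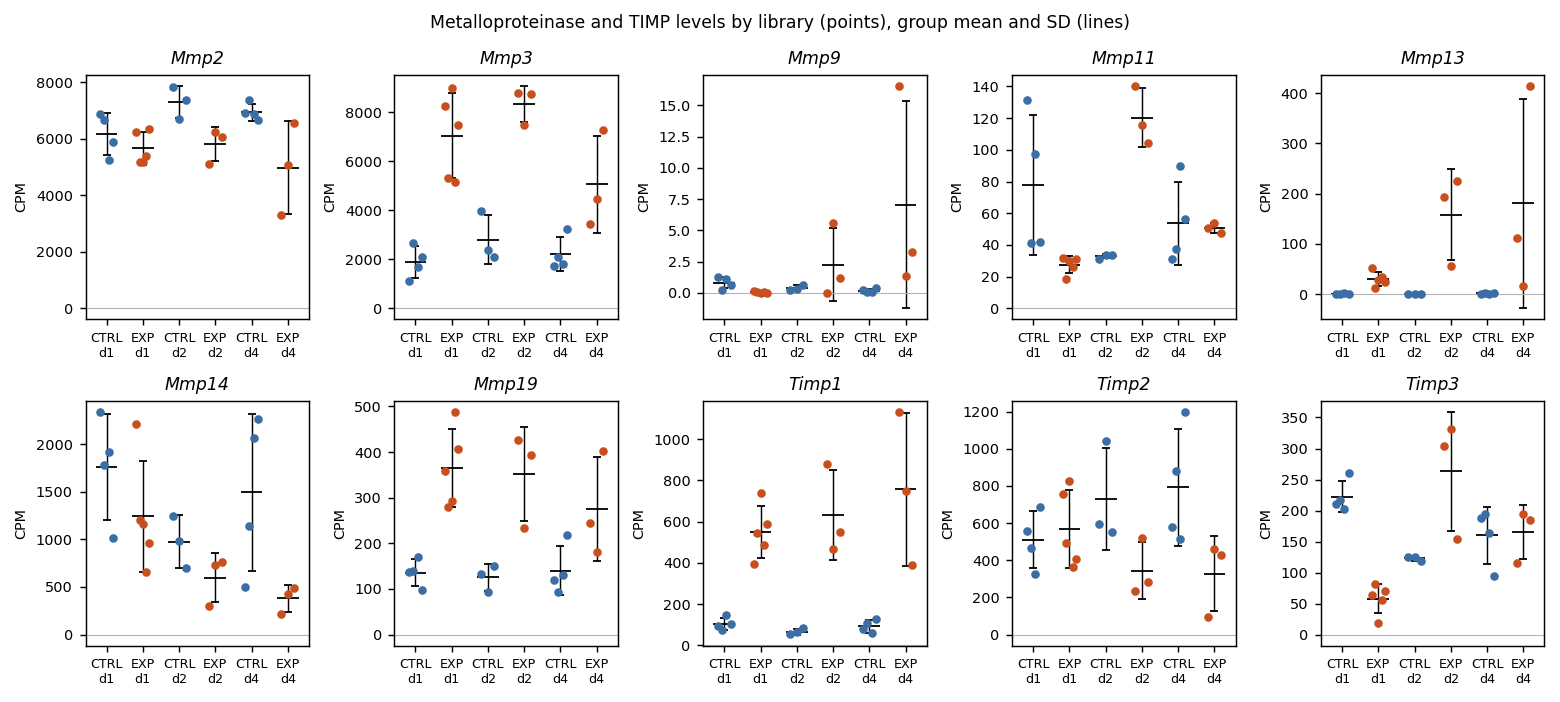
CPM (y axis, a linear scale of its own in each panel) of each of the 10 genes in every library (points) of the 6 groups, CTRL in blue and EXP in orange on days 1, 2 and 4 (d1, d2 and d4), with the group mean and SD as lines. Timp1, Mmp3 and Mmp13 show EXP points above all CTRL points of the same day, Mmp11 and Timp3 show EXP points below CTRL on day 1 and above it on day 2, and 1 EXP library of day 4 carries most of the Mmp9 signal.

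Mmp2 and Mmp9 encode the gelatinases A and B, which digest denatured collagen and basement membrane collagen. Mmp2 (ENSMUSG00000031740) had the highest level per transcript length of the 7 metalloproteinases in each CTRL library. On day 1 CTRL held 6862, 6675, 5262 and 5890 CPM and EXP 6228, 5179, 5169, 5385 and 6346 CPM, and the libraries overlapped (log2 fold change -0.12, SE 0.17, adjusted p 0.614). On day 2 CTRL held 7844, 6710 and 7383 CPM and EXP 5118, 6258 and 6059 CPM. On day 4 CTRL held 6900, 7368, 6866 and 6658 CPM and EXP 3301, 5087 and 6563 CPM. The EXP libraries lay below all CTRL libraries on both days, but neither difference passed the test (-0.33 with SE 0.20 and adjusted p 0.306 on day 2, -0.48 with SE 0.19 and adjusted p 0.0773 on day 4). Scaling by library totals in place of TMM turned the sign on days 1 and 2, to 0.07 and 0.14. Without EXP replicate 3 the day 4 value was -0.71 with an adjusted p of 0.0123, and DESeq2 also called it (-0.49, adjusted p 0.0339).

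Mmp9 (ENSMUSG00000017737) was a rare transcript. On day 1 its raw counts were 30, 6, 31 and 16 in the CTRL libraries and 3, 1, 0, 2 and 0 in the EXP libraries. Mmp9 therefore fell to the floor of 3 counts or below in every EXP library of that day (edgeR adjusted p 0.0136). With each EXP library set to 3 counts, the CTRL mean was 7.44-fold higher. On day 2 the counts were 5, 6 and 14 in CTRL and 0, 141 and 31 in EXP, so the EXP libraries lay on both sides of CTRL. The day 2 difference missed the threshold (2.47, SE 1.17, adjusted p 0.175), and it was 0.53 without EXP replicate 2.

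On day 4 Mmp9 had 5, 1, 1 and 8 counts in CTRL and 618, 38 and 92 counts in EXP, or 0.242, 0.0429, 0.0419 and 0.346 CPM against 16.6, 1.32 and 3.28 CPM. All 3 EXP libraries were higher, and the log2 fold change was 5.37 (SE 1.18, adjusted p 0.00426). EXP replicate 1 held most of these counts, and without it the difference was 3.75 (adjusted p 0.0445). Limma voom with quality weights called Mmp9 on neither day 1 (adjusted p 0.143) nor day 4 (4.40, adjusted p 0.0844).

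Neutrophils, macrophages and osteoclasts also make Mmp9, so their markers are given beside it. The 8 neutrophil markers summed to 0.0424 to 0.930 CPM in CTRL and 0.948 to 2.06 CPM in EXP on day 1, to 0.0898 to 0.547 and 0.826 to 6.22 CPM on day 2, and to 0.168 to 0.433 and 1.01 to 6.38 CPM on day 4. EXP replicate 1 of day 4 had both the highest neutrophil sum and the highest Mmp9. EXP replicate 1 of day 2 had a neutrophil sum of 2.51 CPM and 0 counts of Mmp9. On day 1 the neutrophil sums of the arms nearly touched, at up to 0.930 CPM in CTRL and from 0.948 CPM in EXP. Of the 8 neutrophil markers 3 had enough counts to be tested, and S100a8 rose on all 3 days and Camp on day 4. Mpo was called on no day (-0.40, -0.66 and 1.75). The untested Ly6g, Ngp, Elane, S100a9 and Csf3r reached at most 0.249, 0.132, 0.268, 0.594 and 0.924 CPM. The mean of Ly6g was lower in EXP on each day, whereas S100a9 had counts in EXP only. The 8 macrophage and monocyte markers summed to 62.97 to 109.8 CPM in CTRL and 63.3 to 89.6 CPM in EXP on day 1, to 138.6 to 181.1 and 99.5 to 171.7 CPM on day 2, and to 122.7 to 158.4 and 76.0 to 179.9 CPM on day 4. Their defining members Ptprc, Adgre1, Itgam and Ccr2 reached at most 0.243, 0.236, 0.231 and 0.303 CPM. The remaining 4 had enough counts to be tested. Cd14 rose on all 3 days (adjusted p 0.0362, 0.0337 and 0.00840) and Cd68 on days 1 and 2 (adjusted p 0.0208 and 0.0217), whereas Csf1r, the receptor for macrophage colony-stimulating factor, fell by 1.12 on day 1 (adjusted p 0.0174). The 5 osteoclast markers summed to 657.3 to 7363 CPM, nearly all of it Ctsk, which had group means of 3643 to 6532 CPM. The defining marker Dcstamp was at 0 in all 22 libraries, and 4 markers were tested. Calcr, with 0 counts in all CTRL libraries, was the only one called. On day 4 it was at least 2.76-fold higher in EXP against 3 counts per library (edgeR adjusted p 0.0434). The part of such cells in the Mmp9 values was not tested.

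Mmp14 (ENSMUSG00000000957) encodes MT1-MMP, a membrane-anchored collagenase and the main activator of Mmp2. The CTRL libraries of day 1 held 2337, 1785, 1914 and 1009 CPM and the EXP libraries 2211, 1204, 1162, 659 and 966 CPM. On day 2 CTRL held 1245, 987 and 695 CPM and EXP 302, 733 and 758 CPM. The arms overlapped on both days, and the differences missed the threshold (-0.51 with SE 0.41 and adjusted p 0.377 on day 1, -0.71 with SE 0.50 and adjusted p 0.380 on day 2). On day 4 CTRL stood at 496, 1143, 2062 and 2267 CPM and EXP at 220, 429 and 492 CPM. Every EXP library was lower, the highest of them only just, and Mmp14 fell by 1.97 on the log2 scale (SE 0.50, adjusted p 0.00943). The call was lost without EXP replicate 1 (-1.69, adjusted p 0.0649), in a fit of the day 4 libraries alone (-1.999, adjusted p 0.0607) and under limma voom with quality weights (-1.46, adjusted p 0.0714).

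A set of 192 genes that follow Rnf10 (correlation above 0.9 once group means are removed) divides the 22 libraries into 7 with a high mean level and 15 with a low one, with a gap between 4.13 and 4.83 in mean log2 CPM. On the high side are 3 CTRL and 2 EXP libraries from day 1, with 2 CTRL libraries from day 4, and none of the 10 members belongs to the set. Mmp14 was at 1204 to 2337 CPM (median 2062) on the high side and at 220 to 1245 CPM (median 733) on the low side. With the side as a covariate, the day 4 difference of Mmp14 was -1.27 (adjusted p 0.0289). Among the low-side libraries of day 4, 2 CTRL and 3 EXP, it was -1.10 (adjusted p 0.173), so the fold narrowed by more than 1.5 times and the call was lost. That restriction takes out the 2 CTRL libraries with the highest Mmp14 of day 4 (2062 and 2267 CPM) and no EXP library. A narrower fold was therefore built in, and the lost call cannot serve as a check of the day 4 fall. The same restriction to the high side of day 1, 3 CTRL and 2 EXP, left Mmp9 at -3.47 (adjusted p 0.209).

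**Figure D3:**
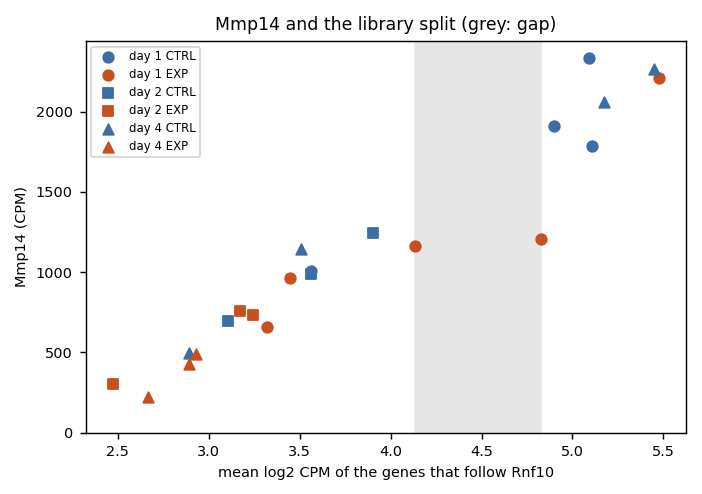
Mmp14 CPM (y axis) of each library against the mean log2 CPM of the 192 genes that follow Rnf10 (x axis), with shapes for the day, blue for CTRL, orange for EXP and the gap between the sides in grey. The 3 EXP libraries of day 4 lie at the lower left between 220 and 492 CPM, and the 2 CTRL libraries of day 4 on the right hold 2062 and 2267 CPM.

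Mmp11 (ENSMUSG00000000901) encodes stromelysin 3, a furin-activated enzyme with little activity on classical matrix proteins. On day 1 CTRL held 131, 41.2, 97.2 and 41.8 CPM and EXP 31.8, 18.7, 29.6, 26.0 and 31.1 CPM. Mmp11 was 2.84-fold lower (SE 0.31 on the log2 scale, adjusted p 0.00129), with all EXP libraries below all CTRL libraries. On day 2 the order was turned around, with 31.2, 33.8 and 33.4 CPM in CTRL and 140, 116 and 104 CPM in EXP. Mmp11 rose by 1.87 (SE 0.39, adjusted p 0.00396). By day 4 the arms overlapped at 31.1, 37.3, 89.7 and 56.1 CPM in CTRL and 50.4, 54.0 and 47.7 CPM in EXP (-0.08, SE 0.35, adjusted p 0.897). The EXP effect of day 2 exceeded that of day 1 by 3.38 (SE 0.50), and the dependence of the effect on the day passed the test (adjusted p 0.00143). A stretch of 155 exon bases of Mmp11 overlaps Chchd10 on the opposite strand, which was at 0.725 to 24.7 CPM.

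Timp3 (ENSMUSG00000020044) encodes the TIMP that stays bound to the matrix and also inhibits ADAM sheddases such as Adam17. The CTRL libraries of day 1 held 210, 217, 203 and 260 CPM and the EXP libraries 64.5, 81.1, 18.2, 56.0 and 70.6 CPM. Timp3 fell by 1.94 (SE 0.31, adjusted p 1.59e-04), or 3.83-fold, and no library overlapped. Day 2 gave 126, 125 and 119 CPM in CTRL and 304, 332 and 154 CPM in EXP. All EXP libraries were then above CTRL, but the difference of 1.10 (SE 0.38) had an adjusted p of 0.0600, and it passed only under other settings, for example DESeq2 (adjusted p 0.0311) or without EXP replicate 3 (1.36, adjusted p 0.0355). On day 4 the arms overlapped, with 188, 194, 164 and 94.6 CPM in CTRL and 115, 194 and 186 CPM in EXP (0.04, SE 0.35, adjusted p 0.942). The EXP effect on Timp3 depended on the day (adjusted p 0.00187) and was higher on day 2 than on day 1 by 3.03 (SE 0.50). Exons of Timp3 share 1733 bases with Syn3 on the opposite strand, a gene at 0 to 0.964 CPM here.

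Timp2 (ENSMUSG00000017466) encodes the inhibitor that links proMmp2 to Mmp14. On day 1 the arms overlapped, at 559, 466, 326 and 689 CPM in CTRL and 756, 491, 826, 361 and 408 CPM in EXP (0.16, SE 0.40, adjusted p 0.803). On day 2 CTRL held 593, 1044 and 550 CPM and EXP 232, 518 and 281 CPM. On day 4 CTRL held 577, 879, 515 and 1198 CPM and EXP 95.7, 460 and 428 CPM. The EXP libraries were below all CTRL libraries on both of these days. Neither difference passed the test (-1.08 with SE 0.49 and adjusted p 0.148 on day 2, -1.27 with SE 0.47 and adjusted p 0.0547 on day 4), while DESeq2 called the second (-1.28, adjusted p 0.0209) and limma voom the first (-1.07, adjusted p 0.0352).

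The joint test asks of each gene whether the EXP effect differed between the days. It passed for 3 of the 10 members, Mmp11, Timp3 and Mmp9 (adjusted p 0.00143, 0.00187 and 0.00407), and for 8.82% of all genes tested. All 3 were lower in EXP on day 1 and not on day 2. Within the EXP arm alone, 5 members changed over the days, against 14.3% of all genes: Timp3 (adjusted p 6.11e-04), Mmp11 (7.73e-04), Mmp9 (0.00167), Mmp13 (0.0309) and Mmp14 (0.0341). Relative to EXP on day 1, EXP on day 2 was higher by 2.18 (SE 0.33) for Timp3, 2.13 (SE 0.33) for Mmp11 and 2.37 (SE 0.69) for Mmp13, and lower for Mmp14 (-1.05, SE 0.46). Mmp13 was still 2.56 (SE 0.69) above day 1 on day 4, and Mmp14 had gone to -1.70 (SE 0.48). The calls of Mmp13 and Mmp14 were lost when single libraries were left out, in 6 and 5 of 11 fits, with adjusted p of up to 0.0683 and 0.109, and without EXP replicate 2 or 3 of day 1 both were lost and 3 members remained called. Without replicate 2 or 3, 2405 of 17514 and 2041 of 17500 genes were called. Limma voom called Mmp9 neither for the dependence on the day (adjusted p 0.0891) nor within EXP (0.103). Within CTRL 0 members changed over the days by edgeR (0.291% of all genes did), and 0 by DESeq2 or limma voom. At an unadjusted p under 0.05, edgeR gave 1 member, Mmp11 (p 0.00933).

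Levels can be compared between genes only per transcript length, and CPM per kb of exon sequence (GENCODE M21) was used for that. In CTRL on day 1 the order of the metalloproteinases was Mmp2 (1831 ± 219), Mmp3 (1048 ± 358), Mmp14 (296 ± 92.99), Mmp19 (38.3 ± 8.41), Mmp11 (28.04 ± 15.9), Mmp13 (0.316 ± 0.247) and Mmp9 (0.227 ± 0.128), as mean ± SD in CPM per kb. Mmp19 and Mmp11, and likewise Mmp13 and Mmp9, did not differ beyond their spread. In EXP on day 1 Mmp3 (3908 ± 964) came before Mmp2 (1679 ± 172), and Mmp3 kept the highest mean of the 7 in EXP on days 2 and 4 (4627 ± 417 and 2805 ± 1101). Mmp13 reached 59.2 ± 33.8 on day 2 and 67.6 ± 78.0 on day 4 in EXP, within the spread of Mmp14 on day 4 (63.9 ± 23.9). Among the inhibitors, Timp2 (131 ± 39.2) and Timp1 (119 ± 33.1) were alike within their spread in CTRL on day 1, above Timp3 (27.3 ± 3.14). In EXP on day 4 Timp1 (852 ± 417) stood above Timp2 (84.1 ± 51.8) and Timp3 (20.3 ± 5.31).

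As a description of the mixture, the levels per kb were summed over each family in each library. The 7 metalloproteinases summed to 3241 ± 393 in CTRL and 5920 ± 1090 in EXP on day 1, to 3937 ± 735 and 6653 ± 381 on day 2, and to 3597 ± 463 and 4513 ± 1678 on day 4 (mean ± SD, CPM per kb). Mmp2 gave on average 56.7%, 55.9% and 58.1% of this sum in CTRL on days 1, 2 and 4, and Mmp3 gave 65.4%, 69.5% and 61.9% of it in EXP. The 3 inhibitors summed to 277 ± 39.2 in CTRL and 774 ± 162 in EXP on day 1, to 278 ± 69.1 and 832 ± 221 on day 2, and to 328 ± 111 and 957 ± 371 on day 4. Timp1 made up 43.0%, 28.1% and 31.97% of the inhibitor sum in CTRL and 80.1%, 84.5% and 86.5% in EXP, while Timp2 went from 47.1%, 66.3% and 61.3% to 19.0%, 11.6% and 11.01%. Both sums were thus higher in EXP on average, and each was led, by mean share, by another gene than in CTRL. On day 4 the metalloproteinase sums of the arms overlapped, at 3127 to 4229 in CTRL and 3065 to 6352 in EXP. The ratio of metalloproteinase to inhibitor transcripts was 9.56 to 16.4 in CTRL and 6.37 to 10.7 in EXP on day 1, 9.84 to 21.01 and 6.15 to 9.91 on day 2, and 9.15 to 15.8 and 2.33 to 11.1 on day 4. Its mean was lower in EXP on each day, and the arms overlapped on each day. EXP replicate 1 of day 4 had the lowest ratio, with the highest Timp1 and the lowest Mmp2, Mmp14 and Timp2 of all 22 libraries.

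**Figure D4:**
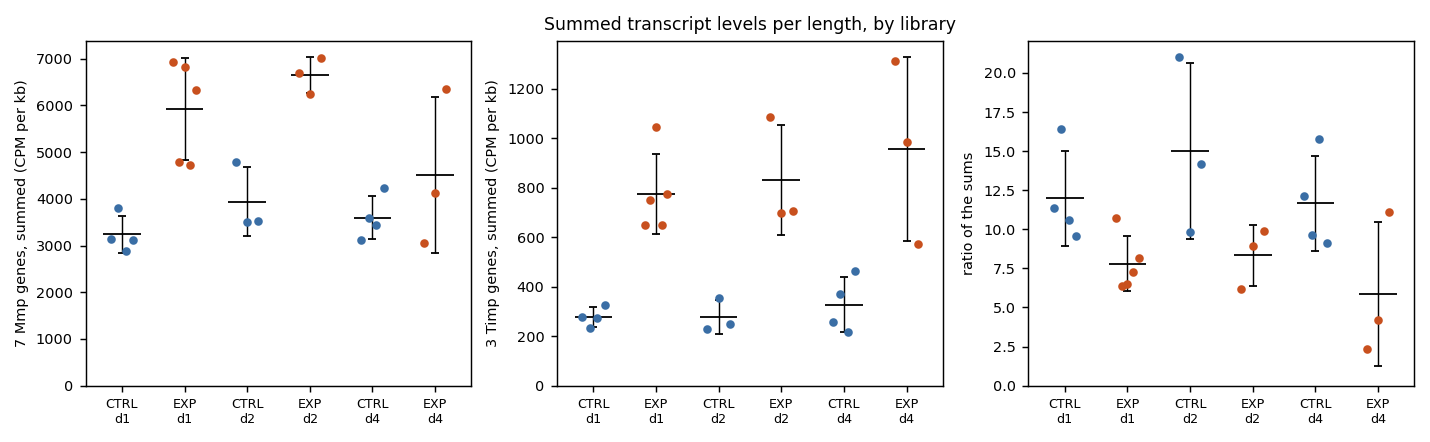
Sum of the 7 metalloproteinases (left), sum of the 3 inhibitors (middle, both in CPM per kb) and their ratio (right) for every library (points) of the 6 groups, CTRL in blue and EXP in orange, with group mean and SD as lines. The inhibitor sums of EXP lie above those of CTRL on every day, and the ratios overlap, from 2.33 to 11.1 in EXP and from 9.15 to 21.01 in CTRL.

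Markers of other cell types also moved with the arms. On day 1 the sums of the 6 endothelial markers overlapped, at 5.76 to 9.23 CPM in CTRL and 0.911 to 8.48 CPM in EXP. Their median log2 fold change was -1.04 on that day, with 0 of 5 tested called. The 6 endothelial markers summed to 0.498 to 0.783 CPM in CTRL and 2.08 to 7.39 CPM in EXP on day 2, and to 4.15 to 9.96 and 23.7 to 55.6 CPM on day 4, with no overlap on either day. On day 4 Tek, an angiopoietin receptor, made up most of the EXP sum at a mean of 28.4 CPM (adjusted p 0.0563). Kdr, a receptor for vascular endothelial growth factor, rose on day 2 from 0.0696 to 0.928 CPM (adjusted p 0.0345) and on day 4 from 0.204 to 1.78 CPM (adjusted p 0.0179), and Emcn, with 1 count in all CTRL libraries of day 4, rose on that day to 0.536 CPM (adjusted p 0.0394). Of the defining endothelial genes, Cdh5 was too low to be tested and Pecam1 had day 4 means of 0.911 CPM in CTRL and 2.70 CPM in EXP (adjusted p 0.211). The 6 pericyte and smooth muscle markers summed to 8.66 to 16.7 CPM in CTRL and 19.5 to 38.6 CPM in EXP on day 2, and to 18.4 to 27.4 and 32.4 to 43.1 CPM on day 4. Of these 6, Acta2, the smooth muscle actin that myofibroblasts also make, was the gene that rose on both days (2.73 and 2.22, adjusted p 0.0255 and 0.0265). The 4 melanocyte markers were apart on day 2, at 5.39 to 13.5 and 15.2 to 37.0 CPM, with none of the 2 tested called. The 6 adipocyte markers summed to 10.7 to 30.2 CPM in CTRL and 6.72 to 12.9 CPM in EXP on day 1. Their median log2 fold change was then -4.60, with 0 of 5 tested called and Adipoq, Plin1 and Cidec at group means under 1 CPM. On day 2 the sums were 8.71 to 12.2 and 8.11 to 71.7 CPM, and Cidec rose (6.95, adjusted p 0.0312). The arms also overlapped on day 4, at 2.39 to 6.82 CPM in CTRL and 4.08 to 377 CPM in EXP. On that day 4 of the 5 tested rose, against 12.8% of all genes. In EXP replicates 1, 2 and 3 of day 4 the adipocyte sum was 4.08, 119 and 377 CPM. The 8 keratinocyte markers summed to 9.36 to 46.1 CPM in CTRL and 3.35 to 17.6 CPM in EXP on day 1. The sums were 9.31 to 39.4 and 5.55 to 6.26 CPM on day 2, without overlap, and 10.9 to 25.2 and 3.73 to 18.2 CPM on day 4. Krt10 (-2.54, adjusted p 1.28e-04) and the pericyte marker Cspg4 (-1.20, adjusted p 0.00714) fell on day 1. Trp63 fell on days 2 and 4 (-2.60 and -2.20, adjusted p 0.00399 and 0.00599). No other keratinocyte marker was called. The part of all these cells in the members' values was not tested.

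The rest of both families was examined from a list of 17 genes, of which 12 were tested. On day 1, 4 of them rose and 5 fell (median log2 fold change -1.07), on day 2, 4 rose and 1 fell (-0.30), and on day 4, 3 rose and 1 fell (0.30). Over all genes tested, 28.6%, 13.4% and 22.5% changed on these days. Mmp10, which encodes stromelysin 2, rose on all days (1.87, 1.92 and 1.60, SE 0.34, 0.41 and 0.37, adjusted p 4.65e-04, 0.00433 and 0.00549). Reads of its far more abundant paralog Mmp3 may be part of these values, which was not tested. Mmp12, the macrophage elastase, was at 0.110, 0.0348 and 0.170 CPM in CTRL and 2.51, 3.50 and 3.82 CPM in EXP on days 1, 2 and 4, and it rose on each day (adjusted p 0.00289, 0.00574 and 0.00614). Mmp8, the neutrophil collagenase, rose on days 1 (1.34, adjusted p 0.0363) and 2 (3.13, adjusted p 0.00217), to 8.24 ± 3.55 CPM (SD, n = 5) and 15.6 ± 4.05 CPM (SD, n = 3). The membrane-type Mmp16 fell on all days, by 1.22, 1.34 and 1.61 (adjusted p 0.00295, 0.0156 and 0.00323). Mmp23 fell by 1.42 (adjusted p 2.61e-04) and Mmp27 by 1.87 (adjusted p 0.00505) on day 1. Mmp1a rose, and Mmp15 and Mmp25 fell, on day 1, all at group means under 1 CPM (adjusted p 0.0434, 0.0416 and 0.0229). Mmp1b had 0 counts in all CTRL libraries and was at least 2.93-fold higher in EXP on day 2 and at least 4.45-fold higher on day 4 against 3 counts per library (adjusted p 0.0396 and 0.0107). Timp4, with Mmp7, Mmp20, Mmp21 and Mmp24, was too low to be tested.

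**Figure D5:**
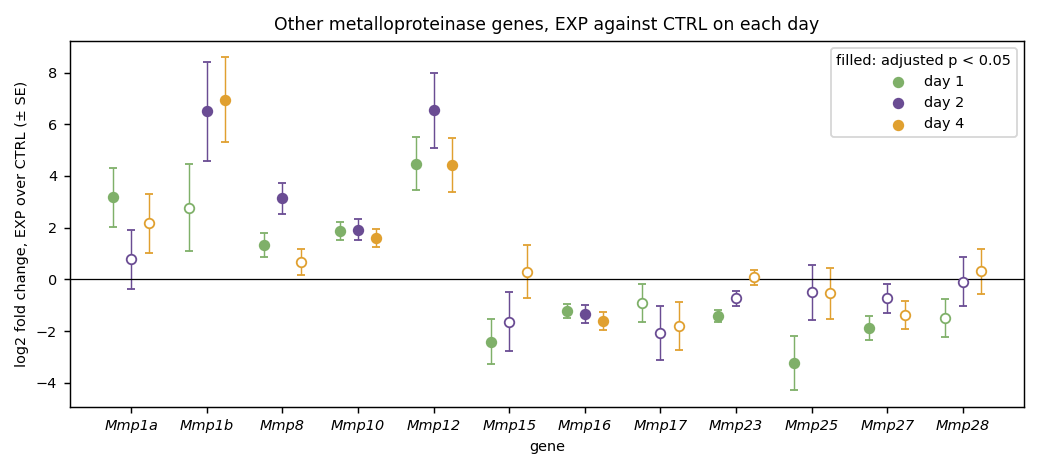
Log2 fold change of EXP over CTRL (y axis, ± SE) on days 1, 2 and 4 (colours) for the 12 other metalloproteinase genes that could be tested, with filled points for adjusted p under 0.05. Mmp10 and Mmp12 are filled above zero and Mmp16 below zero on all 3 days, and the points of Mmp1a, Mmp1b, Mmp15 and Mmp25 rest on group means under 1 CPM.

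Genes that activate, anchor, inhibit or clear metalloproteinases formed a list of 19, of which 16 were tested. On day 1, 3 rose and 2 fell (median -0.01), on day 2, 5 rose and 2 fell (0.79), and on day 4, 5 rose and 1 fell (0.26). The share of all genes tested that changed was 28.6%, 13.4% and 22.5%, so the 5 of 16 on day 1 were near it. Reck, a membrane-anchored inhibitor of several metalloproteinases, fell on all days, from 157 ± 46.5 to 65.9 ± 20.6 CPM on day 1 (SD, n = 4 and 5), from 188 ± 17.9 to 63.6 ± 21.5 CPM on day 2 (n = 3 and 3) and from 188 ± 39.9 to 43.2 ± 19.8 CPM on day 4 (n = 4 and 3). Its log2 fold changes were -1.26, -1.56 and -2.12 (adjusted p 0.00207, 0.00569 and 4.76e-04). Furin, the convertase that removes the prodomains of Mmp14 and Mmp11, rose on days 1 (1.19, adjusted p 4.68e-04) and 2 (1.27, adjusted p 0.00373). The plasminogen activators Plau and Plat rose on day 2 (1.68 and 2.02, adjusted p 0.0349 and 0.00359) and on day 4 (3.01 and 2.63, adjusted p 4.66e-04 and 2.91e-04). Cd44, a hyaluronan receptor that can hold metalloproteinases at the cell surface, rose on all days (1.37, 1.11 and 0.81, adjusted p 1.52e-05, 0.00142 and 0.00535). Lcn2, which encodes lipocalin 2, rose on all days as well (5.38, 8.08 and 5.15, adjusted p 8.21e-04, 0.00203 and 0.00341), and Ctsl rose on day 4 (0.57, adjusted p 0.0456). Pcolce, the procollagen C-proteinase enhancer, fell by 0.81 on day 1 (adjusted p 0.00637) and Sparc by 1.62 on day 2 (adjusted p 0.0202).

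Transcription factors of the AP-1, ETS, RUNX and NF-kB families and Cebpb, which have known sites in metalloproteinase promoters, formed a list of 17, all tested. On day 1, 5 rose and 2 fell (median 0.29), on day 2, 5 rose and 2 fell (-0.44), and on day 4, 2 rose and 4 fell (-0.34). Among all genes tested the changed share was 28.6%, 13.4% and 22.5% on days 1, 2 and 4. On day 1 Nfkb1 (1.38, adjusted p 5.36e-04), Runx1 (1.29, adjusted p 8.26e-04), Ets1 (0.97, adjusted p 0.00216), Etv5 (0.72, adjusted p 0.0115) and Fosl1 (0.57, adjusted p 0.0330) rose, and the AP-1 subunits Jun (-0.89, adjusted p 0.0123) and Fos (-0.67, adjusted p 0.0481) fell. On day 2 Runx2 (3.01, adjusted p 7.16e-04), a known activator of Mmp13 in bone, rose from 0.745 to 6.05 CPM, and Elk3 (1.99), Etv4 (3.25), Runx1 (1.46) and Etv5 (0.92) rose too. Fosb (-1.21, adjusted p 0.0140) and Jund (-1.40, adjusted p 0.0328) fell on that day. On day 4 Runx2 (2.18, adjusted p 0.00194) and Elk3 (1.11, adjusted p 0.0323) rose, while Fosl2 (-1.31), Ets2 (-1.51), Cebpb (-1.25) and Rela (-0.67) fell.

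Cytokines known to act, in either direction, on metalloproteinase or TIMP expression, with their receptors, formed a list of 17, of which 14 were tested. On day 1, 6 rose and 1 fell (median 0.70), on day 2, 6 rose and 1 fell (0.56), and on day 4, 2 rose and 3 fell (-0.05). For comparison, 28.6%, 13.4% and 22.5% of all genes tested changed on these days. The calls cover receptors as well as ligands. The ligands Il1b, Osm and Il1a did not pass the count filter, with at most 0.472, 0.0787 and 13.3 CPM in any library. Tnf (at most 0.805 CPM) and Il6 were called on no day. Il11 rose on all days (2.96, 4.31 and 5.89, adjusted p 0.00142, 0.00137 and 1.29e-04), and so did the interleukin 1 receptor Il1r1 (1.32 on day 1 and 0.85 on day 4, adjusted p 1.89e-04, 0.00106 and 0.0160 on days 1, 2 and 4). Lif rose on days 1 (3.31, adjusted p 3.92e-06) and 2 (1.74, adjusted p 0.00452), as did Tnfrsf1b (1.61 and 1.23) and Osmr (0.79 and 0.99). Tgfb3 fell on day 1 (-1.26, adjusted p 2.55e-05), rose on day 2 (0.81, adjusted p 0.0124) and fell on day 4 (-0.78, adjusted p 0.00816). Tgfb2 fell on day 2 (-1.20, adjusted p 0.0479), and Tgfb1 (-1.16, adjusted p 0.0411) and Tgfbr1 (-0.75, adjusted p 0.0318) fell on day 4.

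The genes most like each member were found by Pearson's r of log2 CPM over the 22 libraries, among the 9820 genes that averaged 5 CPM or more. These libraries share the group differences and the split described above, so r is given as a description. Timp1 was closest to Nek6 (0.99), Cxcl5 (0.96) and Il33 (0.96). Mmp3 was closest to its paralog Mmp10 (0.95, where reads may have been shared), Gm15242 (0.94) and Tm4sf1 (0.93), and Mmp13 to Cemip2 (0.94), Abcc1 (0.92) and Clcf1 (0.91). For Mmp19 the closest were P2ry2 (0.92), Dlst (0.91) and Zfp52 (0.91). Mmp14 followed Uvrag (0.97), Ppp1ccb (0.97) and Nbl1 (0.96), and Mmp2 followed Nceh1 (0.93), Fam180a (0.93) and Chmp4c (0.92). The closest to Timp2 were Dirc2 (0.93), Ythdc1 (0.90) and Lamp1 (0.90). Lower values were found for Timp3, with Brip1os (0.83), Sdc2 (0.82) and Ccnd1 (0.80), for Mmp9, with Ccnb2 (0.82), Ube2c (0.81) and Pttg1 (0.78), and for Mmp11, with Mxra8 (0.75), Postn (0.74) and Pold1 (0.74).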

How the data were processed

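RNA of sorted skin fibroblasts was measured in 22 libraries of 6 groups. The authors deposited raw counts of reads for each Ensembl gene in 1 table, made from paired-end ultra-low-input libraries per the labels' protocols. Per the submitters' processing notes, Trimmomatic and the build mm39 were used. The aligner, the counting tool, the annotation release and the strand setting are not given in the sources used here. GENCODE M21 (GRCm38) named 52081 of the 55414 identifiers and gave exon lengths and overlaps. Promoters came from RefSeq with coordinates on GRCm38.p6, a build other than that of the counts, and no other coordinates are printed. In that table Mmp2, Mmp9 and Mmp19 had no entry.

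The deposited counts went unchanged into edgeR 4.0.16 under R 4.3.3: filterByExpr (minimum count 10), TMM scaling, and robust quasi-likelihood F-tests on all 22 libraries with 1 mean per group (16 residual degrees of freedom). Benjamini-Hochberg adjustment ran over all tested genes, contrast by contrast. The floor was 3 counts, which is 0.0805 to 0.157 CPM on the TMM-adjusted totals and covers counting error only. The scripts were tested on simulated data. Log2 CPM for likeness used a prior count of 2. Members and gene lists were chosen with earlier results of these data known. All 10 members are named in every contrast, with the 3 most like genes each and, of each list, called genes by smallest p, up to 6 per day. The labels do not say whether each library is 1 mouse, and p-values measure the spread between these libraries. Alternatives were DESeq2 1.42.0, limma 3.58.1 voom, other scalings, no filter, fits per day or arm, a replicate block, the library split and leaving out each library.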

Additional observations from a re-analysis of the deposited data

Results flagged for a closer look

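The effect of the expander on 3 of the 10 genes differed between the days by edgeR's joint test, with adjusted p of 0.00407 for Mmp9, 0.00143 for Mmp11 and 0.00187 for Timp3. Each was lower in EXP on day 1. On day 2 Mmp11 and Timp3 were higher in all EXP libraries than in all CTRL libraries, and on day 4 Mmp9 was. No library of the 29 groups of 4 or 5 values checked stood apart from the rest of its group by Dixon's criterion, where chance alone would flag about 1 group in 20. Groups of 3 libraries were not checked, so both arms of day 2 and EXP of day 4 are not covered. In EXP of day 4, Mmp9 was at 16.6 CPM in replicate 1 against 1.32 and 3.28 CPM in replicates 2 and 3.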

How the results depend on the processing

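The number of members that changed on day 4 was 3 in place of 6 under limma voom with quality weights and 3 in a fit of the day 4 libraries alone, and it ran from 4 to 6 when single libraries were left out. Over all genes the calls were 3943 of 17554 in the main fit, 3253 of 17554 under limma voom and 1128 of 15845 in the fit of day 4. They ran from 1633 of 18149 to 5011 of 18336 with single libraries left out. The number that changed over the days within EXP was 3 in place of 5 without the low-count filter, under limma voom, in a fit of the EXP libraries alone and with the replicate block, and ran from 3 to 5 when single libraries were left out. Over all genes the calls within EXP were 2502 of 17554 in the main fit. In these 4 settings, in the same order, they were 1928 of 33490, 2490 of 17554, 1267 of 16651 and 1432 of 17554. With single libraries left out they ran from 1367 of 18277 to 3415 of 18336. With single libraries left out, the other counts were 7 on day 1, 5 to 6 on day 2, 3 with a day-dependent effect and 0 changing within CTRL. Over all genes these were 4024 to 4830, 891 to 2177, 898 to 2572 and 5 to 92 calls. Of the members' values under the other alternatives, 513 kept direction and side of the threshold, 19 lost the call, 8 gained it and 9 changed sign, and of those with a library left out 634, 18, 2 and 6. None of the values that changed sign had passed the threshold. They were, with library totals in place of TMM, Mmp2 on day 1 (0.069) and day 2 (0.14) and Mmp11 on day 4 (0.25). Mmp11 on day 4 was also 0.23 under limma voom, 0.11 with the replicate block, 0.29 with the library split as covariate and 0.58 within 1 side of that split. Timp3 on day 4 was -0.17 with the replicate block and -0.19 within 1 side of the split. With single libraries left out, Timp2 on day 1 ran from -0.024 to 0.33, Mmp11 on day 4 from -0.27 to 0.29 and Timp3 on day 4 from -0.14 to 0.25. Same-numbered CTRL and EXP libraries correlated at -0.0664 to 0.164 in their deviations from the group means. Such weak correlations over all genes cannot exclude a pairing by number. The labels give no pairing, and the main fit used none. With the replicate block the counts of members on days 1, 2 and 4 were 7, 5 and 6, beside 4337, 2210 and 2702 of the 17554 genes. Over all genes, library totals in place of TMM moved the median log2 fold change to 0.21, 0.49 and 0.36 and the higher share of the calls to 66.2%, 90.5% and 80.7%, from 48.7%, 57.5% and 57.0%. The counts of all genes called went from 2359 to 4631 on day 2 under that scaling and from 3943 to 1128 on day 4 in the fit of that day alone. Mmp9 in most libraries, and Mmp13 in CTRL, rest on few counts, which limits their fold changes.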
